A study of Mus musculus with 6 samples.

Results

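Expression of 10 genes of the tumour necrosis factor (TNF) family was followed in activated splenic CD8+ T cells (CD8-TC) that lack Runx3, one of the RUNX transcription factors and active in cytotoxic lymphocytes. They were 5 ligands (Fasl, Tnfsf10, Tnf, Lta and Ltb) and 5 receptors, 4 of them costimulatory (Tnfrsf9, Tnfrsf4, Tnfrsf18 and Cd27) and the last, Tnfrsf1b, the second receptor for TNF. Members were taken by gene symbol, each had a single row on the array, and they are 10 of 19938 genes with a row of their own. Cells came from 3 Runx3-/- mice and 3 WT mice with intact Runx3 (Runx3 +/+), each mouse giving 1 array, and all 6 were labelled as male ICR animals of 6 weeks. Splenocytes of both genotypes were selected on anti-CD8 beads, stimulated for 2 days through CD3 and CD28, and grown for 4 days with human IL-2 at 100 units per ml. Cells of Runx3-/- mice alone were also sorted by flow cytometry, against CD11c+ dendritic cells before culture and against CD4+CD8- cells after it, so sorting and genotype cannot be told apart. The sources used here do not state which exons the Runx3 deletion covers.

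TNF family ligands are mostly trimeric membrane proteins that can be shed, and their receptors fall into a group with a cytoplasmic death domain, which can recruit caspases, and a group that binds TRAF adaptors and activates NF-kB. In cytotoxic T cells, Fas ligand and TRAIL (Tnfsf10) kill target cells through death receptors, TNF and the lymphotoxins drive inflammation and lymphoid tissue structure, and receptors such as CD137 (Tnfrsf9), OX40 (Tnfrsf4), GITR (Tnfrsf18) and CD27 add to the signal of the T cell receptor during expansion and survival.

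The values are log2 expression after robust multichip average (RMA) normalisation. A gene was tested where at least 1 array reached the median of the whole table, 4.26, which stands in for background, and 10021 genes were. All 10 members passed this filter, and each lay above 4.26 on all 6 arrays. Differences are those of the arrays labelled Runx3-/- (KO1 to KO3) minus WT (WT1 to WT3). The array did not show the loss of the targeted gene. Runx3 stood at 8.91, 9.11 and 9.27 on KO1, KO2 and KO3, against 8.77, 8.26 and 9.16 on WT1, WT2 and WT3, a log2 difference of 0.37 (SE 0.24, adjusted p = 0.521 by limma with Benjamini-Hochberg adjustment), which was 0.13 without WT2 and 0.58 without WT3. The probes of the row that lie in the deleted part are not known here, so the row checks nothing, and arrays are called by their labels. Some arrays stood apart. WT1 carried Xist at 10.6, against 3.31 to 3.40 on the other 5 arrays, although its mouse is labelled male. WT1 was also below the table median for Uty of the Y chromosome, at 3.91 against 7.10 to 8.27 elsewhere. The same held for Kdm5d (3.68 against 5.92 to 7.02) and Eif2s3y (3.93 against 9.24 to 9.39), both Y-linked too. By these values WT1 read as female and the other arrays as male, so only WT mixed the sexes. Sex was not a covariate in the fit, and its part in the differences was not tested. For 19 genes of mitosis KO2 lay 1.46 below the mean of all arrays, while the other KO-labelled arrays lay 0.62 and 0.72 above it and the WT arrays between -0.34 and 0.27. Of the 5 markers of CD8 T cells, Cd3d, Cd3e, Cd3g, Cd8a and Cd8b1, all lay at 9.87 or more on every array.

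Fasl was the 1 member called across all genes, and it was lower in KO-labelled cells. Among the receptors, Tnfrsf9 and Tnfrsf1b were lower by the criterion of the study, which asks for at least 1.5-fold and an unadjusted p below 0.05, but missed an adjusted p of 0.05. The remaining 7 members passed neither threshold. Of all tested genes, 0.629% were called at an adjusted p of 0.05 (0.269% higher and 0.359% lower), and 8.3% passed the study's threshold (3.97% higher and 4.33% lower). The call of Fasl is thus 1 of 5 ligands, and the 5 receptors held 0 calls by limma. At an unadjusted p under 0.05 by limma were 2 of the ligands and 2 of the receptors, beside 1413 of the 10021 tested genes. The groups did not overlap for 5 members, of which Fasl, Tnfrsf9 and Tnfrsf1b were lower and Ltb and Cd27 higher, and they did not overlap for 22.4% of all tested genes (11.6% higher and 10.9% lower). The median log2 difference was -0.79 over the 5 ligands and -0.30 over the 5 receptors, beside -0.01 over all tested genes. These medians moved with single arrays. The median of the ligands was -0.32 without WT2 and -0.43 without KO3, and that of the receptors was -0.50 without KO1 and -0.14 without KO2. Without KO2 and WT2 together they were -0.18 and -0.08.

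**Figure D1:**
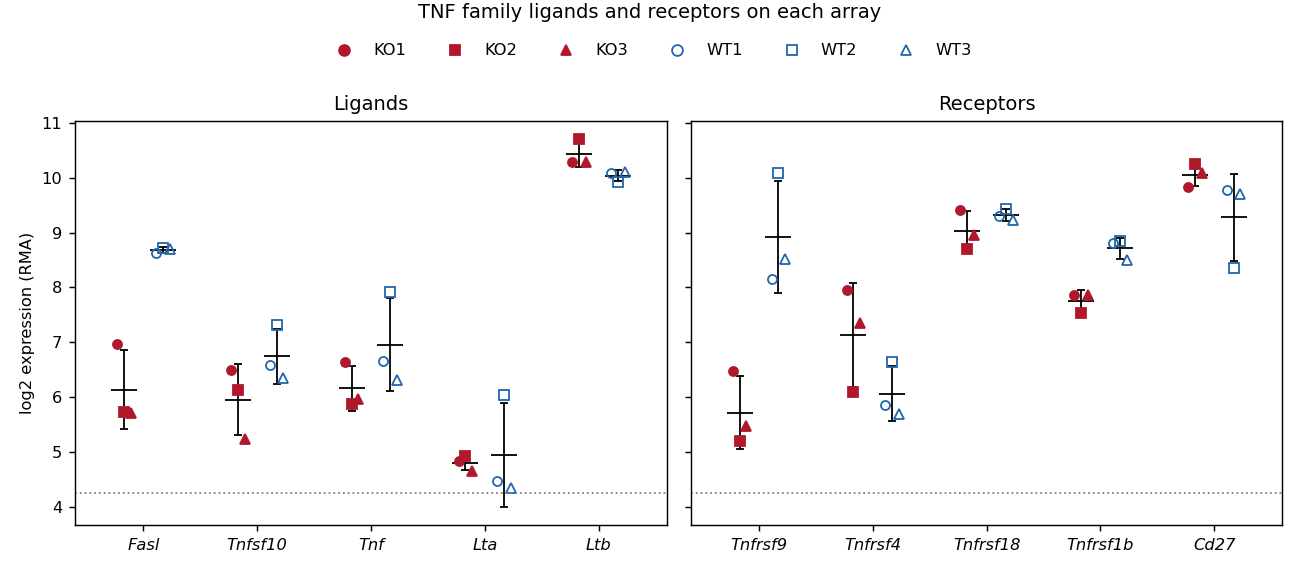
Log2 expression (RMA, y axis) of the 5 ligands (left) and 5 receptors (right) on each array, with filled red symbols for KO-labelled arrays, open blue symbols for WT arrays, bars for mean ± SD (n = 3 per group) and a dotted line at the table median of 4.26. For Fasl every KO-labelled value lies at 6.97 or below, and the WT values lie between 8.62 and 8.72.

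Fasl encodes Fas ligand, the death ligand that kills cells carrying Fas. It stood at 6.97, 5.73 and 5.71 on KO1, KO2 and KO3, against 8.62, 8.72 and 8.70 on WT1, WT2 and WT3. All KO-labelled arrays lay below all WT arrays, with a gap of 1.65 between the groups. KO1 was the KO-labelled array nearest to WT. Fasl fell by 2.54 on the log2 scale (SE 0.34, 95% interval -3.35 to -1.74, adjusted p = 0.0333), a 5.83-fold difference, and it was the 41st of 10021 genes by p. The KO-labelled arrays were farther apart (SD 0.72) than the WT arrays (SD 0.05), where the median SD over all tested genes was 0.22 in KO-labelled cells and 0.20 in WT. The value lay between -2.96 and -2.33 with each array left out, and the call was kept without KO1 (adjusted p = 0.00666) and lost without KO2 (0.0977), KO3 (0.119), WT1 (0.104), WT2 (0.0974) or WT3 (0.149). In bulk RNA, fewer cells that make a transcript and less transcript per cell cannot be told apart.

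The promoter of Fasl is shown because it belongs to the member that was called. Sequences come from RefSeq (GRCm38.p6), run from 250 bases before the annotated start to 50 bases from it on, and carry in capitals the letters of 3 motif families searched on both strands, as families whose motifs the study looked for around bound Runx3. RUNX was searched as TGTGGT and as its variants, which are TGCGGT in the middle base, TGTGGC in the last base and, with both changed, TGCGGC. AP-1 was searched as TGANTCA. ETS was searched as AGGAAG or, with another first letter, as CGGAAG. In the windows shown no matches overlap each other. The study reported most Runx3-bound regions as distant from gene starts, outside windows of this length. It tested Fasl and Tnfrsf9 by qPCR on pooled RNA of IL-2-activated CD8-TC and reported the same pattern as on the arrays. Both are among genes it calls Runx3-regulated, a name that asks for a bound region with a RUNX motif. The Fasl window, at chr1:161788446-161788745 on the minus strand, holds 2 ETS matches and neither of the other letters.
Fasl: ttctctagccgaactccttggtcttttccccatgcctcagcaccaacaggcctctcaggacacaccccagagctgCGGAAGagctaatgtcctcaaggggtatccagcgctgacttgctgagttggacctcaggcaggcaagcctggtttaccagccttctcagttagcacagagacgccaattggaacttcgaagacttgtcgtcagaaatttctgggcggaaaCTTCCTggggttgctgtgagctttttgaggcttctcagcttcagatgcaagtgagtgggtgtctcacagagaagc

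Tnfsf10 and Tnf had lower means in KO-labelled cells but overlapped between the groups. Tnfsf10, the death ligand TRAIL, stood at 6.49, 6.13 and 5.23 on KO1, KO2 and KO3, against 6.58, 7.31 and 6.34 on WT1, WT2 and WT3. Its log2 difference was -0.79 (SE 0.38, adjusted p = 0.398), with KO3 the lowest array and KO1 above WT3. Tnf, the cytokine that names the family, stood at 6.64, 5.88 and 5.96 on KO1, KO2 and KO3, against 6.65, 7.91 and 6.31 on WT1, WT2 and WT3. Its difference was -0.80 (SE 0.43, adjusted p = 0.440). WT2 alone stood high for Tnf, and without that array the difference was -0.32 (adjusted p = 0.732), while without WT3 it was -1.12 (adjusted p = 0.389) and passed the study's threshold. For Tnfsf10 the difference was -0.51 without WT2 (adjusted p = 0.686) and -0.43 without KO3 (adjusted p = 0.703), and without KO1 it was -1.06 (adjusted p = 0.256) and passed the study's threshold.

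The lymphotoxins gave other values. Lta, the secreted lymphotoxin alpha, was close to the table median, at 4.83, 4.93 and 4.66 on KO1, KO2 and KO3, against 4.47, 6.03 and 4.34 on WT1, WT2 and WT3. Its difference of -0.14 (SE 0.43, adjusted p = 0.908) rested on WT2, and without WT2 it was 0.40 (adjusted p = 0.437). Ltb anchors lymphotoxin alpha to the membrane, and it stood at 10.3, 10.7 and 10.3 on KO1, KO2 and KO3, against 10.1, 9.92 and 10.1 on WT1, WT2 and WT3. All KO-labelled arrays lay above all WT arrays, by 0.17 at the closest, and the difference was 0.39 (SE 0.16, adjusted p = 0.354), below the 1.5-fold limit, and 0.25 without KO2 (adjusted p = 0.500). Ltb, Tnf and Lta are neighbours on chromosome 17. Next to them Nfkbil1 showed a difference of 0.04 (SE 0.15, adjusted p = 0.932).

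Among the receptors, Tnfrsf9 showed the largest difference of the 10 members. It encodes CD137, an inducible receptor that promotes T cell expansion. Tnfrsf9 stood at 6.47, 5.20 and 5.48 on KO1, KO2 and KO3, against 8.16, 10.1 and 8.51 on WT1, WT2 and WT3. The groups were 1.69 apart at the closest, with WT2 far above the other WT arrays and KO2 the lowest of all. The log2 difference was -3.20 (SE 0.55, 95% interval -4.50 to -1.91, adjusted p = 0.0677), which is 9.21-fold lower. Its SE was larger than that of Fasl, and it ranked 93rd by p. Without WT2 the difference was -2.62 (adjusted p = 0.0758), and without WT2 and KO2 together it was -2.36 (adjusted p = 0.0736). Of its neighbours on chromosome 4, Errfi1, an inhibitor of the EGF receptor that lies behind Park7, fell by 1.38 on the log2 scale (SE 0.14, adjusted p = 0.0143), and Park7, an antioxidant protein, had a difference of -0.50 (SE 0.30, adjusted p = 0.484). The call of Errfi1 was kept without KO1 (adjusted p = 0.0393), KO2 (0.0399) or WT2 (0.0444) and lost without KO3 (0.0848), WT1 (0.0656) or WT3 (0.0557).

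The 2 annotated starts of Tnfrsf9 are shown because they differ in these letters. Both lie on the plus strand, the first window at chr4:150919905-150920204 and the second at chr4:150927749-150928048. The first holds 1 ETS match, which spans the start, and no RUNX or AP-1 letters. The second holds TGAGTCA at 15 bases before the start and TGTGGT from base 11 of the transcript on. The values do not say which start was used, since the array gives 1 value for the gene.
Tnfrsf9, first start: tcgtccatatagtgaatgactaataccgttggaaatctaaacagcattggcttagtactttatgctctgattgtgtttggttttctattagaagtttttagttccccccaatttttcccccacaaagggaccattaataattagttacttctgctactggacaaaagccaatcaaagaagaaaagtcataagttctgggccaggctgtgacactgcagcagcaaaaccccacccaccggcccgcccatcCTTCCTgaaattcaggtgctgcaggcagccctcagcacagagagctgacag
Tnfrsf9, second start: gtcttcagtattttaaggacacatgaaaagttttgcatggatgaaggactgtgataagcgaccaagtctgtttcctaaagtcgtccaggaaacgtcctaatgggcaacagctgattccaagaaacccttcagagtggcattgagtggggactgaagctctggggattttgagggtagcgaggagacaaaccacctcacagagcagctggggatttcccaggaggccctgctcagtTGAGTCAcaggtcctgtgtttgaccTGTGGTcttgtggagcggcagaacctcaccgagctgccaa

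Tnfrsf1b, the TNF receptor that binds TRAFs and has no death domain, was also lower. It stood at 7.86, 7.52 and 7.86 on KO1, KO2 and KO3, against 8.81, 8.84 and 8.49 on WT1, WT2 and WT3. The groups were 0.63 apart, with an SD of 0.20 in KO-labelled cells and 0.19 in WT. These lay close to the median SD over all tested genes, 0.22 in KO-labelled cells and 0.20 in WT. The difference was -0.96 (SE 0.17, 95% interval -1.36 to -0.56, adjusted p = 0.0686), 1.95-fold lower, the 106th by p. With each array left out it lay between -1.07 and -0.85, with adjusted p between 0.113 and 0.226. Near it on chromosome 4, Vps13d, a lipid transport protein, had a value of 0.80 in the opposite direction (SE 0.26, adjusted p = 0.267), which missed the study's threshold without KO2, KO3 or WT2. Vps13d was at 0.47, below the 1.5-fold limit, when the rows of a gene were averaged. The promoter is shown beside those of Fasl and Tnfrsf9 as that of the remaining member past the study's threshold. It lies at chr4:145246821-145247120 on the minus strand and holds 2 ETS matches.
Tnfrsf1b: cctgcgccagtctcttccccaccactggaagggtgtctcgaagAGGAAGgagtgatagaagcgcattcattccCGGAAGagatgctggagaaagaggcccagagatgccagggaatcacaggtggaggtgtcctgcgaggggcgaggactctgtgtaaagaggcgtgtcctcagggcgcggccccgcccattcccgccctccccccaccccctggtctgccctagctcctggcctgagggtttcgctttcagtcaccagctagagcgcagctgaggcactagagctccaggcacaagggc

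RUNX letters were present in 4 of the 11 windows of the members (10 genes, of which Tnfrsf9 has 2 windows), namely those of Lta, Tnf, Cd27 and the second start of Tnfrsf9. Of all 32851 promoter windows of this length, 45.2% held RUNX letters, 7.81% AP-1 letters and 46.5% ETS letters. AP-1 letters were in 1 window of the members and ETS letters in 6. A match is a description of the sequence and says nothing of binding.

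Of the other costimulatory receptors, Tnfrsf4 and Tnfrsf18 overlapped between the groups. Tnfrsf4 (OX40) had the largest positive difference of the members and stood at 7.95, 6.09 and 7.35 on KO1, KO2 and KO3, against 5.86, 6.64 and 5.70 on WT1, WT2 and WT3. KO2 lay below WT2, and the difference was 1.06 (SE 0.48, adjusted p = 0.380). It was 1.58 without KO2 (adjusted p = 0.174), 1.35 without WT2 (adjusted p = 0.448), 1.87 without both (adjusted p = 0.0512) and 0.66 without KO1 (adjusted p = 0.475). Tnfrsf4 thus passed the study's threshold without WT2, without KO2 and without both. Tnfrsf18 (GITR), the gene next to it on chromosome 4, stood at 9.41, 8.69 and 8.96 on KO1, KO2 and KO3, against 9.30, 9.43 and 9.23 on WT1, WT2 and WT3. Its difference was -0.30 (SE 0.20, adjusted p = 0.529), with KO1 among the WT values, and it was -0.50 without KO1 (adjusted p = 0.242) and -0.14 without KO2 (adjusted p = 0.779). The difference between the 2 neighbours was not tested.

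Cd27, the receptor for CD70 that is present on resting T cells and supports their survival after stimulation, stood at 9.84, 10.2 and 10.1 on KO1, KO2 and KO3, against 9.77, 8.36 and 9.70 on WT1, WT2 and WT3. The groups did not overlap, but KO1 and WT1 were only 0.07 apart and WT2 was far below the rest. The difference was 0.78 (SE 0.38, adjusted p = 0.405) and 0.32 without WT2 (adjusted p = 0.568), and without WT1 it was 1.02 (adjusted p = 0.430) and passed the study's threshold. Its neighbours on chromosome 6 had values of the same sign, 0.47 for Tapbpl (SE 0.30, adjusted p = 0.506) and 0.86 for Vamp1 (SE 0.27, adjusted p = 0.255).

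**Figure D2:**
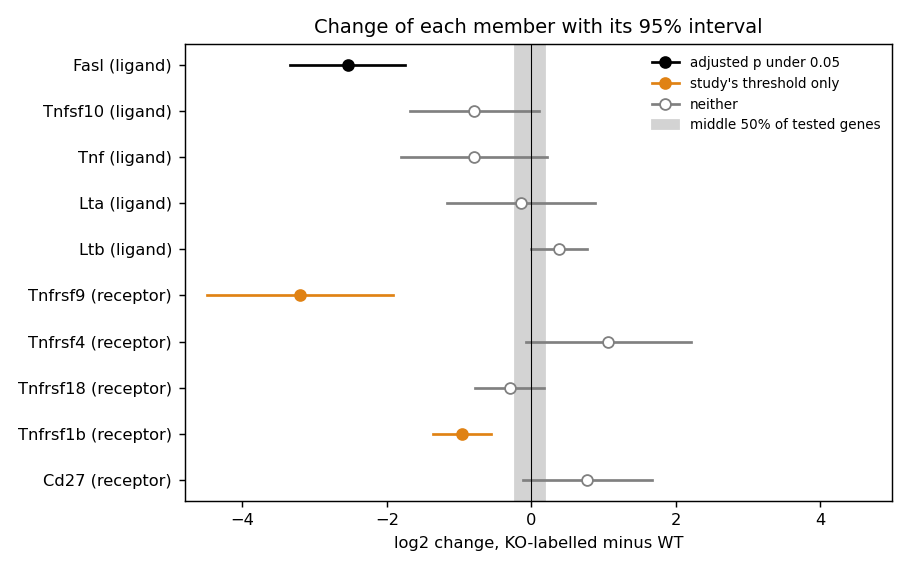
Log2 difference of each member, KO-labelled minus WT (x axis, points), with its 95% interval (lines, limma, n = 3 per group). Black marks the member past an adjusted p of 0.05, orange those past the study's threshold only, and the grey band is the middle 50% of all tested genes, -0.22 to 0.18. The intervals of Fasl, Tnfrsf9 and Tnfrsf1b end at -1.74, -1.91 and -0.56, and that of Ltb reaches down to 0.

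KO2 and WT2 were more often the extreme arrays of a member than the other 4 arrays were. WT2 was the highest array for 7 of the 10 members (Fasl, Tnfsf10, Tnf, Lta, Tnfrsf9, Tnfrsf18 and Tnfrsf1b) and the lowest for Ltb and Cd27, so it was an extreme for 9 members. Over all tested genes WT2 was the highest or lowest array for 51.6%. KO2 was the lowest array for Tnf, Tnfrsf9, Tnfrsf18 and Tnfrsf1b and the highest for Ltb and Cd27, 6 members in all, where it was an extreme for 53.4% of tested genes. With each gene centred on its mean over the arrays, the ligands averaged -0.04, -0.41 and -0.71 on KO1, KO2 and KO3, against 0.20, 0.89 and 0.08 on WT1, WT2 and WT3. The receptors averaged 0.11, -0.65 and -0.25 on KO1, KO2 and KO3, against 0.18, 0.48 and 0.13 on WT1, WT2 and WT3. The part of the low mitotic genes of KO2 in these values was not tested.

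**Figure D3:**
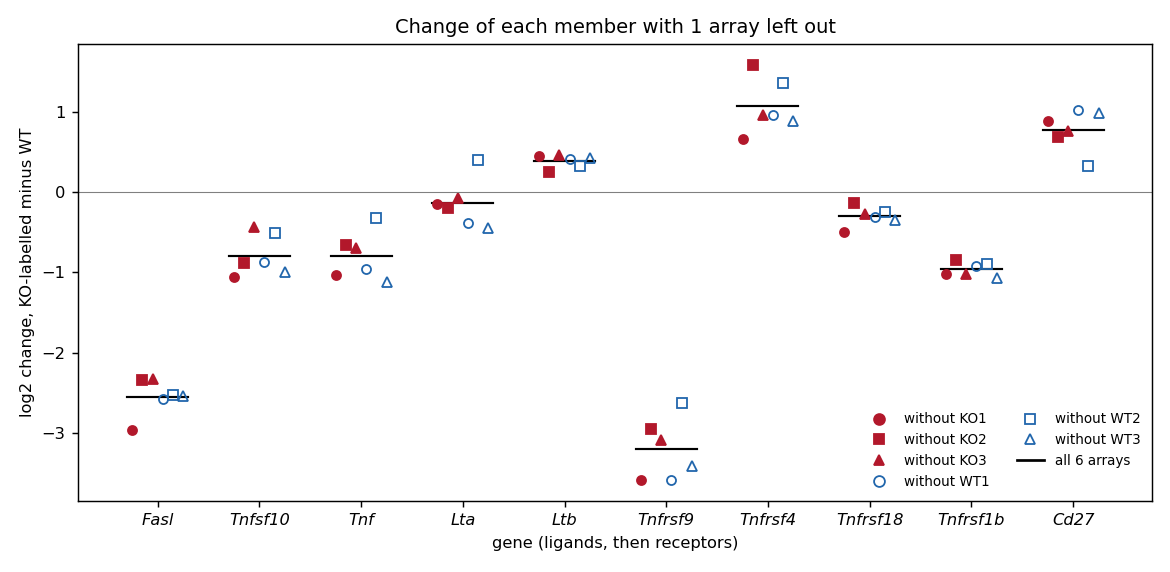
Log2 difference of each member, KO-labelled minus WT (y axis), with all 6 arrays (black line) and with 1 array left out (filled red symbols, a KO-labelled array; open blue symbols, a WT array). Fasl stays between -2.96 and -2.33 and Tnfrsf1b between -1.07 and -0.85, while Lta changes sign without WT2.

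The partners of these members were looked at in lists of the rest of the pathway. Of the costimulatory ligands, Tnfsf9 (for CD137), Cd70 (for CD27) and Tnfsf18 (for GITR) lay below the table median on all arrays and were not tested. Tnfsf4, the OX40 ligand, stood at 5.94, 4.32 and 5.33 on KO1, KO2 and KO3, against 6.94, 5.95 and 5.40 on WT1, WT2 and WT3, with a difference of -0.90 (SE 0.51, adjusted p = 0.459) that was -0.46 without KO2 and -0.48 without WT1. Of 6 tested ligands outside the members 0 were called by limma at an adjusted p of 0.05, and 0 passed the study's threshold. An unadjusted p under 0.05 was found for 1 of them, beside 1413 of the 10021 tested genes. Tnfsf13b (BAFF), a B cell survival factor, had the smallest p among them, with a difference of 0.53 (SE 0.22, unadjusted p = 0.0424, adjusted p = 0.333).

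Over all tested genes 0.629% were called and 8.3% passed the study's threshold. Of 13 other receptors tested, 1 was called and 5 passed the study's threshold, 3 with higher and 2 with lower values in KO-labelled cells. The called one was Tnfrsf25 (DR3), a death domain receptor that costimulates T cells, at 7.11, 6.93 and 7.03 on KO1, KO2 and KO3, against 5.14, 5.62 and 5.37 on WT1, WT2 and WT3. It rose by 1.64 (SE 0.16, adjusted p = 0.0143), and the call was lost without KO3 (adjusted p = 0.0848), WT1 (0.0578) or WT3 (0.0780). Fas, the receptor for Fas ligand, stood at 8.52, 8.42 and 8.70 on KO1, KO2 and KO3, against 8.01, 7.63 and 7.96 on WT1, WT2 and WT3, a difference of 0.68 (SE 0.16, adjusted p = 0.147) that was below 1.5-fold, at 0.56, without WT2. Tnfrsf14 (HVEM), a receptor for lymphotoxin alpha and LIGHT, differed by 0.74 (SE 0.29, adjusted p = 0.322). Its value was 0.44 without WT2, and it missed the study's threshold without WT2, KO2 or KO3. Those lower at the study's threshold both bind TRAIL in mice, the death receptor Tnfrsf10b at -0.77 (SE 0.27, adjusted p = 0.293) and the decoy receptor Tnfrsf23 at -1.22 (SE 0.22, adjusted p = 0.0765). Tnfrsf10b was at -0.50 without KO2 and missed the threshold without KO2, WT1 or WT2, while Tnfrsf23 passed it with any 1 array left out.

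Downstream of the receptors, 13 TRAF and death adaptor genes and 14 NF-kB genes were tested. Limma called 0 of either list at an adjusted p of 0.05. At an unadjusted p under 0.05 were 4 of the adaptors and 3 of the NF-kB genes, beside 1413 of the 10021 tested genes. Over all tested genes 3.97% were higher and 4.33% lower at the study's threshold. At that threshold 2 of the first list and 2 of the second were higher and none was lower. They were Traf5, an adaptor of CD27 and OX40, at 0.94 (SE 0.34, adjusted p = 0.297), the inhibitor of apoptosis Birc3 at 0.86 (SE 0.14, adjusted p = 0.0639), Nfkbia, which encodes the NF-kB inhibitor IkBa, at 0.80 (SE 0.15, adjusted p = 0.0853), and the NF-kB feedback inhibitor Tnfaip3 (A20) at 0.62 (SE 0.22, adjusted p = 0.288). Traf5, at 0.54 without WT2, and Tnfaip3, at 0.45 without WT2, missed the study's threshold without WT2, KO2 or KO3, while Birc3 and Nfkbia passed it with any 1 array left out. The medians of the lists were 0.24 and 0.07. Among 3 genes for shedding of ligands and receptors, 0 passed either threshold, and Rhbdf2, a partner of the protease that sheds TNF, had the smallest p with a difference of -0.55 (SE 0.17, unadjusted p = 0.0131, adjusted p = 0.239).

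**Figure D4:**
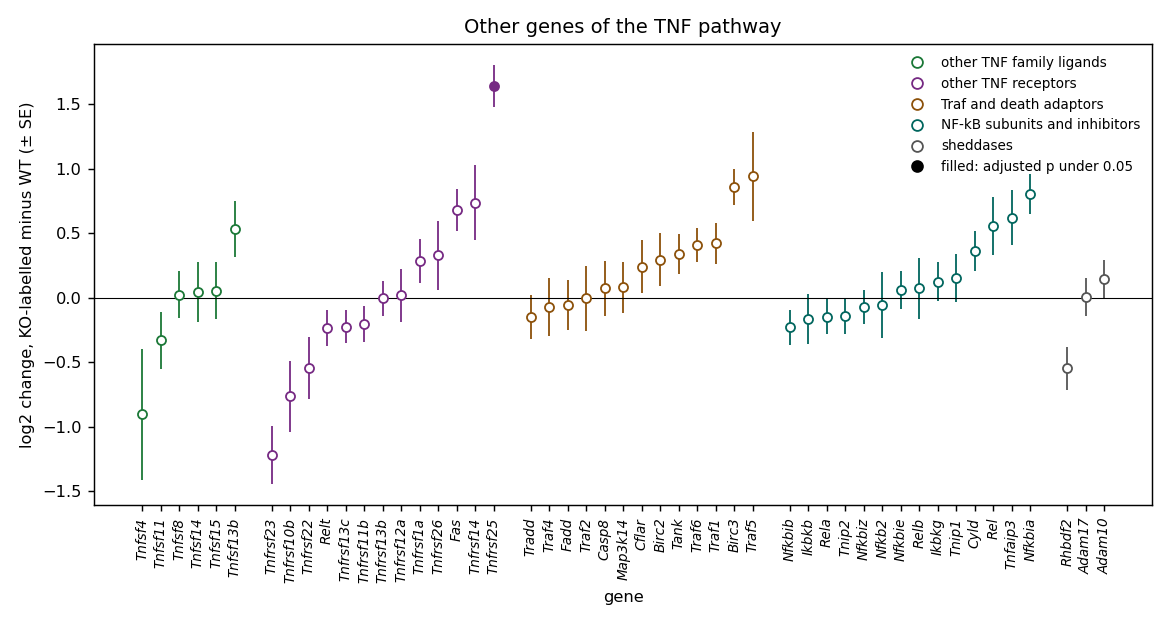
Log2 difference, KO-labelled minus WT (y axis, points ± SE, n = 3 per group), of the tested genes of 5 further lists of the TNF pathway (x axis, coloured by list). The filled point is Tnfrsf25 at 1.64, the gene called at an adjusted p of 0.05, and the values run down to -1.22 for Tnfrsf23.

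Markers of other cells that can carry these molecules were measured on the same arrays. NK cells also make Fas ligand and TRAIL. Of 5 NK markers, Ncr1, Tyrobp and Klra8 were below the table median on all arrays, and Klrb1c (-1.56, adjusted p = 0.169) and Eomes (-1.76, adjusted p = 0.331), a factor of effector CD8 T cells too, were lower at the study's threshold. Klrb1c stood at 3.74, 3.76 and 3.77 on KO1, KO2 and KO3, against 4.34, 5.66 and 5.94 on WT1, WT2 and WT3. Its KO-labelled values thus lay below the table median. It passed the study's threshold with any 1 array left out and was called without WT1 (-2.05, adjusted p = 0.0275). Eomes stood at 8.69, 8.09 and 5.79 on KO1, KO2 and KO3, against 9.74, 8.87 and 9.23 on WT1, WT2 and WT3. Its difference was -0.89 without KO3, and it missed the study's threshold without WT1, WT2 or WT3. The linear values of the 5 markers summed to 101 to 457 in KO-labelled cells and to 557 to 911 in WT, mostly through Eomes, and the other 4 summed to 45.6 to 48.6 in KO-labelled cells and to 57.4 to 99.7 in WT. Helper T cells carry OX40 and CD27. The study names their genes Cd4 and Zbtb7b among reported Runx3 targets in CD8-TC development. Whether helper cells or CD8-TC carried these transcripts here was not tested. After culture, the Runx3-/- cells alone were sorted against CD4+CD8- cells. Cd4 stood at 6.95, 6.70 and 6.77 on KO1, KO2 and KO3, against 5.29, 5.80 and 6.50 on WT1, WT2 and WT3. Its difference of 0.95 (adjusted p = 0.250) passed the study's threshold, also with any 1 array left out. Zbtb7b differed by 0.64 (adjusted p = 0.342) and passed it with all arrays, but not without KO1, KO3, WT1 or WT2. Cd40lg was below the table median on all arrays. The 3 helper markers summed to 169 to 215 in KO-labelled cells and to 90.1 to 159 in WT. Their part in the values of Tnfrsf4, Tnfrsf25 and Cd27 was not tested, nor that of the NK markers in Fasl and Tnfsf10.

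Foxp3, which defines the regulatory T cells that carry GITR and OX40, stood at 5.53, 5.33 and 6.70 on KO1, KO2 and KO3, against 6.31, 6.70 and 5.52 on WT1, WT2 and WT3, and the groups overlapped. They also overlapped for the markers Ikzf2 (-0.24), Ctla4 (0.11) and Il2ra (-0.30). The 4 regulatory markers summed to 1616 to 1976 in KO-labelled cells and to 1390 to 2600 in WT, mostly through Il2ra and Ctla4. The study names Il2ra among Runx3-regulated proliferation genes of activated CD8-TC or NK cells, so the sum does not measure regulatory T cells alone. Which cells carried these transcripts was not tested. Of 7 dendritic cell markers 6 were below the table median on all arrays, as were all 5 markers of macrophages and monocytes. The remaining dendritic cell marker was Cd74, the MHC class II invariant chain, at 5.74 on KO1 and 4.24 and 3.95 on KO2 and KO3, against 3.49 to 4.13 in WT. The dendritic cell list summed to 79.2 to 123 in KO-labelled cells and to 76.1 to 89.0 in WT, and the macrophage list to 53.6 to 58.4 in KO-labelled cells and 54.8 to 57.3 in WT. Of 4 B cell markers on the array 3 were below the median on all arrays, and Cd79b had a difference of -0.93 (adjusted p = 0.148). The 4 summed to 59.1 to 73.1 in KO-labelled cells and to 78.0 to 102 in WT.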

How the data were processed

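Total RNA of 6 cultures, 1 per mouse, was hybridised to Affymetrix mouse gene ST 1.0 arrays. The deposited log2 values were made by the authors in Partek Genomics Suite with GC-corrected RMA, so each value is a probe summary after background correction and quantile normalisation across arrays. No versions of these tools are stated in the sources used. Such values have no detection calls and understate changes of dim genes. Their medians still differed between arrays, at 4.15 on WT2 and 4.35 on KO2, with the other arrays at 4.24 to 4.30. The table held 35399 rows, of which 21789 had exactly 1 gene symbol, 1621 several and 11989 none in the platform annotation. Each of 19938 genes was represented by its row of highest mean, and 10021 whose highest value reached the table median of 4.26 were tested.

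Groups came from the labels. Arrays were compared with limma 3.58.1 (lmFit and eBayes, R 4.3.3), two-sided and without covariates, and p-values were adjusted by Benjamini-Hochberg over the 10021 genes. SE are moderated. Replicates are separate mice with separate cultures, and with 3 arrays per group their number limits the precision. The fit was tested on simulated data. Alternatives were the filter, normalisation, rows of a gene, priors, array weights, a replicate block and arrays left out, and for genes outside the members they were added after seeing the data. All 10 members are named, as are Runx3 and, of each further list and of the 2 nearest protein-coding genes on each side, those past a threshold or with the smallest p. Tnfsf4, Tnfsf9, Cd70 and Tnfsf18, Park7, Nfkbil1 and Tapbpl, and single markers were chosen after their values were seen. AP-1 and ETS letters were likewise added later. The members and lists were chosen with earlier results of these data known. Figures were drawn with matplotlib 3.10.9.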

Additional observations from a re-analysis of the deposited data

How the results depend on the processing

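All 10 members kept the sign of their difference under the 16 alternatives, except Lta, whose difference of -0.14 became 0.15 with array weights, 0.34 without KO2 and WT2 together, and lay between -0.44 and 0.40 with 1 array left out. Foxp3, outside the members, turned to 0.20 with array weights and to 0.20 without both arrays. The count of members called, 1 with all arrays, was 0 with no filter on dim rows, with the unmoderated linear model, with the replicate block and without KO2 and WT2 together, 4 with array weights (Fasl, Tnfrsf9, Tnfrsf1b and Tnfrsf4), and 0 to 1 with 1 array left out. Fasl was called under 7 of 16 alternatives, with adjusted p between 0.00391 and 0.276. Ligands past the study's threshold were 1 with all arrays and 2 with array weights or the replicate block, Tnfsf10 being the second, and 1 to 2 with 1 array left out. Receptors past it were 2 with all arrays and 2 to 3 with 1 array left out. Of all genes, 63 were called in limma, 36 with no filter, 0 with the unmoderated model (1173 at an unadjusted p under 0.05, and 508 past the study's threshold, against 832), 547 with array weights, 1 with the replicate block, and 9 to 67 with 1 array left out, where 651 to 1258 passed the study's threshold. With median centring 324 genes were higher and 532 lower at the study's threshold, against 398 and 434. Deviations from the group mean correlated at -0.13, -0.37 and -0.13 between arrays of the same number, across genes. Between arrays of different numbers they correlated at -0.45 to 0.44. With 3 arrays per group these values cannot tell whether arrays of the same number were paired. The cause of these shifts was not tested. The number of arrays and, for Lta, the small distance to the table median limit what can be said.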
